A study of Mus musculus with 7 samples.

Results

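Fos, Fosb, Fosl2, Jun, Junb, Jund, Btg2, Ier2, Dusp1 and Atf3 are 10 genes of the AP-1 transcription factors and of the general rapid response, and they are described here in mouse cerebral cortex at postnatal day 7. They were taken by symbol from a table of 56941 rows of transcript abundance (TPM, in which reads are divided by gene length and each library is scaled to a total of 1000000). Each symbol matched 1 row, and all 10 were among the 17582 genes tested, whose mean over the 7 libraries was 1 TPM or more. The variant samples were cortex of mice with the Hnrnph2 P213L variant (Hnrnph2 is X-linked and encodes an RNA-binding protein that acts in splicing) (3 libraries, labelled P7-P213L-cortex), and the controls were cortex of wild-type mice (WT, 4 libraries, P7-WT-cortex). The series title gives myelination and oligodendrocyte differentiation as its subject. Fresh tissue was used in both groups, and the labels give no sex, zygosity, strain background or treatment. The labels do not say that each library came from a separate animal, and every p-value rests on differences among these libraries alone, which may be technical.

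AP-1 is a dimer of a Fos protein and a Jun protein, or of 2 Jun proteins, that binds DNA through a basic region and a leucine zipper. Fos and Fosb are immediate early genes: their transcripts appear within minutes of synaptic activity, growth factors, stress or handling of tissue, without new protein synthesis, and decay quickly. Jun, Junb, Btg2, Ier2, Dusp1 and Atf3 are induced by many of the same signals, whereas Jund and Fosl2 are present at a steadier level in many tissues. In bulk cortex the signal sums all cell types, so more RNA per cell and more cells of an expressing type cannot be told apart.

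In these libraries Fos, Fosb and Btg2 had the largest log2 fold changes of the 10 genes, with mean TPM in P213L cortex at 1.94, 2.13 and 1.58 times that in WT cortex. Jun and Junb were also above WT in every P213L library, by a smaller margin, while Jund, Ier2, Dusp1, Fosl2 and Atf3 overlapped between the groups. None of the 10 passed adjustment over all genes in limma, in which 0 of 17582 genes (0%) had an adjusted p under 0.05. The log2 fold change was above 0 for 9 of the 10 genes, as it was for 63.4% of all tested genes. With median-of-ratios scaling, which centres each library on its typical gene, it was above 0 for 8 of the 10. All tested genes then had a median of -0.008, so a smaller share of them than 63.4% lay above 0. At an unadjusted p under 0.05, 5 of the 10 genes were higher in P213L and 0 lower, against a background of 2.36% of tested genes higher and 1.38% lower. The same 5 genes were those whose groups did not overlap, against 5.94% of tested genes lying wholly higher in P213L. The genes were chosen with earlier results of these data known, so these counts describe the list and do not test it.

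The promoters of Fos, Fosb and Btg2 are shown because, of the 10 genes, Fosb and Btg2 had profiles over the 7 libraries nearest to that of Fos. Each stretch is the 250 bases before the annotated start, 5′ to 3′ on the strand of the gene, from RefSeq on GRCm38.p6 (the mm10 build). Capitals mark the core of the cyclic AMP response element (TGACG or its complement CGTCA, and the full TGACGTCA, which contains both), CCAAT or its complement ATTGG, and TATAAA or TTTATA. The windows are chr12:85473640-85473889 on the plus strand for Fos, chr7:19310046-19310295 on the minus strand for Fosb and chr1:134079156-134079405 on the minus strand for Btg2.
Fos: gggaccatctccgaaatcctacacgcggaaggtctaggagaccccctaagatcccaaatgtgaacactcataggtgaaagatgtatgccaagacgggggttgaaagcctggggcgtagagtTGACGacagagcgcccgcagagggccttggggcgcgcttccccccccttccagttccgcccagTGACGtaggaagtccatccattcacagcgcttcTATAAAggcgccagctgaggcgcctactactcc
Fosb: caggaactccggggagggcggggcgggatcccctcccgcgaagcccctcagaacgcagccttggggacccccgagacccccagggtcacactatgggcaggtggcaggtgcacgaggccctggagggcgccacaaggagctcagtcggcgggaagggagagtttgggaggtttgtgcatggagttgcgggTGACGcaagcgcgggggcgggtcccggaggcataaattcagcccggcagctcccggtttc
Btg2: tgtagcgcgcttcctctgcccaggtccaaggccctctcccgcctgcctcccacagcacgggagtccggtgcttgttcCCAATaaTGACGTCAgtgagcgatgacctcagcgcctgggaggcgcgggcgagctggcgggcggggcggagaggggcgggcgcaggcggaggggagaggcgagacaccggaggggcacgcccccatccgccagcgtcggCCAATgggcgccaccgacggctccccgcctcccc
Counting back from the start, Fos held TGACG at bases 129 to 125 and 66 to 62 and TATAAA at bases 33 to 28. Fosb held TGACG at bases 60 to 56. Btg2 held the full TGACGTCA at bases 166 to 159, between copies of CCAAT at 173 to 169 and 34 to 30. The RefSeq table had promoters of 9 of the 10 genes, Ier2 being the other. Of these 9, 6 held TGACG or CGTCA (Fos, Fosb, Junb, Btg2, Dusp1 and Atf3), against 17.8% of 32851 promoters in the table. The full TGACGTCA stood in 2 of 9 (Btg2 and Dusp1), against 1.55%. The AP-1 site itself, TGANTCA on either strand, stood in 0 of 9 and in 6.75% of all promoters, and the CArG box bound by serum response factor in 0 of 9 and 1.47%. CCAAT stood in 3 of 9 and 33.85%, TATAAA in 1 of 9 and 12.4%, and the GC box GGGCGG, in lower case above, in 7 of 9 and 32.7%, all on either strand. The promoters behind these shares were not limited to tested genes or matched for base composition. A match is a description of letters in the window, and no match says only that these letters are not in these 250 bases. The Jund window (chr8:70697489-70697738, plus strand) held no match. It does not adjoin the gene start given for Jund below, 70698949, so the bases next to that start were not scanned. The Atf3 window (chr1:191183334-191183583) and the Dusp1 window (chr17:26508473-26508722), both minus strand, lie inside the gene spans given below. So does the Fosl2 window (chr5:32136222-32136471, plus strand). For these genes too, the bases before the gene start given below were not scanned. The Btg2 and Junb windows stop just short of theirs.

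Among the Fos genes, Fos (mm10, chromosome 12, 85473890 to 85477273, plus strand) is the classic inducible partner of Jun. It stood at 23.0, 13.5 and 10.9 TPM in P213L replicates 1 to 3, against 8.61, 10.01, 6.96 and 7.07 TPM in WT replicates 1 to 4. Every P213L library lay above every WT library, and P213L replicate 1 lay far above the other P213L libraries. Fos averaged 15.8 ± 6.39 TPM in P213L and 8.16 ± 1.44 TPM in WT (SD, n = 3 and 4). The log2 fold change was 0.86 ± 0.26 (SE, on the log2(TPM + 0.5) scale; limma p = 0.0105, adjusted p = 0.827; exact permutation p = 0.0286, two-sided, the smallest that 35 splits can give). Without P213L replicate 1 it was 0.56 ± 0.20 (SE), still with an unadjusted p under 0.05 (adjusted p = 0.957 in limma).

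Fosb (chromosome 7, 19302696 to 19310051, minus strand) encodes an inducible Fos protein and, by splicing, the stable form known from chronic neuronal activity. It stood at 3.15, 1.76 and 1.48 TPM in P213L, against 1.00, 1.28, 0.467 and 1.26 TPM in WT. The groups did not overlap, with P213L replicate 1 again highest and WT replicate 3 lowest. The log2 fold change was 0.80 ± 0.30 (SE; limma p = 0.0303, adjusted p = 0.827; exact permutation p = 0.0286). Without P213L replicate 1 it was 0.54 ± 0.31 (SE), with an unadjusted p above 0.05 (adjusted p = 0.957 in limma), and without WT replicate 3 it was 0.60 ± 0.24 (SE). The table gives 1 value per gene, so the splice forms of Fosb were not separated.

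Fosl2 (chromosome 5, 32135801 to 32157842, plus strand), which encodes Fra-2, had the highest mean level of the Fos genes per length. It stood at 22.4, 26.4 and 26.7 TPM in P213L, against 20.2, 22.5, 12.3 and 21.6 TPM in WT. The groups overlapped by 1 library, and P213L replicate 1, highest for Fos and Fosb, was the lowest P213L library for Fosl2. The log2 fold change was 0.42 ± 0.21 (SE; limma p = 0.0889, adjusted p = 0.827; exact permutation p = 0.143) and 0.22 ± 0.09 without WT replicate 3 (SE). Fosl1, the remaining Fos gene, stood at 0.253 to 0.424 TPM in P213L and 0.0993 to 0.338 TPM in WT, under the level tested.

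**Figure D1:**
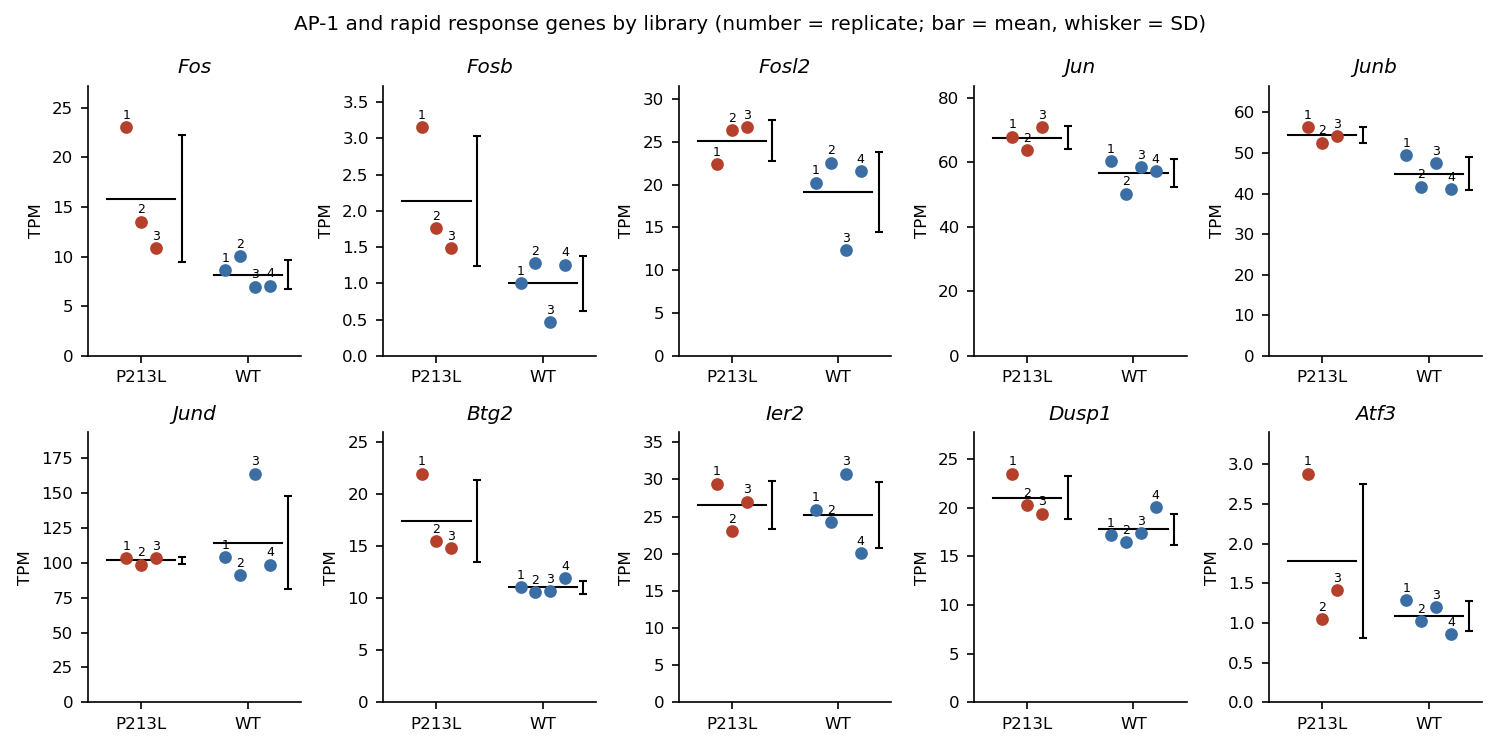
Level of each of the 10 genes in TPM (y axis, from 0) in the 3 P213L libraries (left, red) and the 4 WT libraries (right, blue), with the replicate number above each point, the mean as a bar and the SD as a whisker. P213L replicate 1 stands apart for Fos (23.0 TPM), Fosb (3.15 TPM), Btg2 (21.9 TPM) and Atf3 (2.88 TPM), and WT replicate 3 for Jund (163.6 TPM).

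Among the Jun genes, Jun (chromosome 4, 95049034 to 95052222, minus strand) encodes the inducible c-Jun, the target of the Jun kinases. It stood at 68.01, 63.9 and 71.0 TPM in P213L, against 60.4, 50.3, 58.6 and 57.3 TPM in WT. The groups did not overlap, and here P213L replicate 3 was highest. This gave a log2 fold change of 0.25 ± 0.10 (SE; limma p = 0.0419, adjusted p = 0.827; exact permutation p = 0.0286). With median-of-ratios scaling it was 0.17 ± 0.14 (SE), with an unadjusted p above 0.05 (adjusted p = 0.814 in limma).

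Junb (chromosome 8, 84974484 to 84978718, minus strand), whose protein pairs with Fos and in many settings holds back Jun, stood at 56.4, 52.6 and 54.2 TPM in P213L, against 49.5, 41.7, 47.5 and 41.2 TPM in WT. The lowest P213L library lay above the highest WT library. P213L over WT, the log2 fold change was 0.28 ± 0.11 (SE; limma p = 0.0344, adjusted p = 0.827; exact permutation p = 0.0571), and with median-of-ratios scaling 0.19 ± 0.15 (SE). For Jun and Junb the values without P213L replicate 1 were both 0.25, each with an unadjusted p above 0.05 (adjusted p = 0.957 in limma).

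Jund (chromosome 8, 70698949 to 70700616, plus strand), the Jun gene that cells keep on at rest, was the most abundant of the 10 per length. It stood at 103.1, 98.6 and 103.3 TPM in P213L, against 103.9, 91.1, 163.6 and 98.5 TPM in WT. The groups overlapped, and WT replicate 3 lay far above all other libraries. Over all 7 libraries the log2 fold change was -0.13 ± 0.20 (SE; limma p = 0.536, adjusted p = 0.852; exact permutation p = 0.857), and it was 0.06 ± 0.06 without WT replicate 3 (SE) and -0.22 without WT replicate 2.

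The make-up of the 2 families is a ratio within each library and so does not depend on how libraries are scaled. Jund held 45.2 to 45.9% of the summed TPM of the 3 Jun genes in P213L and 48.6 to 60.6% in WT, without overlap, and the upper bound among WT libraries other than replicate 3 was 50.0%. The ratio of Jun to Jund was 0.660, 0.647 and 0.687 in P213L, against 0.581, 0.552, 0.358 and 0.582 in WT. Jun and Junb thus took a larger share of the Jun transcripts in each P213L library than in each WT library. The margins were small: the lowest P213L and highest WT shares were 29.7 and 29.1% for Jun and 23.7 and 23.1% for Junb. How often such shares separate the groups in other gene families was not counted. In the Fos family the summed level, unlike a share, does depend on scaling. It was 48.8, 42.0 and 39.5 TPM in P213L, against 30.1, 34.1, 20.1 and 30.0 TPM in WT, also without overlap. Fosl2 held most of the summed level in 6 of 7 libraries, and Fos exceeded Fosl2 in P213L replicate 1. The ratio of Fos to Fosl2 was 1.03 there, against 0.407 to 0.513 in the other P213L libraries and 0.328 to 0.565 in WT. The shares of Fos, Fosb and Fosl2 within their family each overlapped between the groups.

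**Figure D2:**
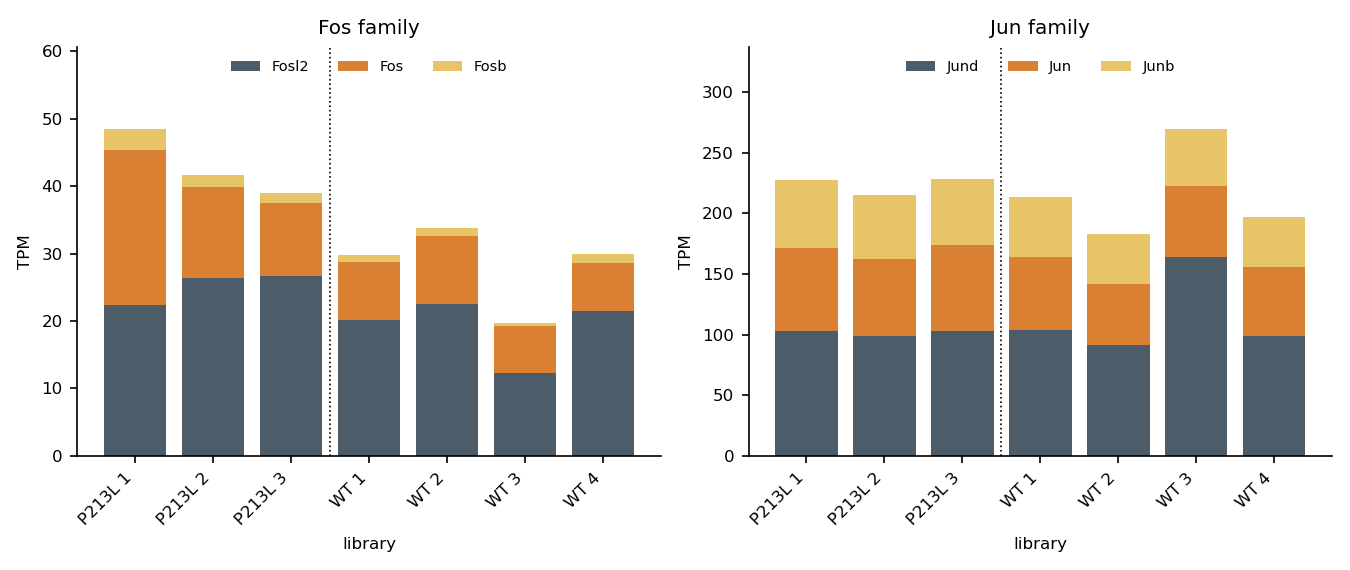
Stacked TPM (y axis, from 0) of Fosl2, Fos and Fosb (left panel) and of Jund, Jun and Junb (right panel) in each library, P213L libraries before the dotted line and WT libraries after it. Fosl1, at no more than 0.424 TPM, is not drawn; Fos takes 47.2% of the Fos family in P213L replicate 1 and Jund takes 60.6% of the Jun family in WT replicate 3.

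The remaining 4 genes act outside or beside AP-1. Btg2 (chromosome 1, 134075170 to 134079120, minus strand) encodes an antiproliferative co-factor that recruits mRNA deadenylases and marks neurogenic progenitors in the developing brain. It stood at 21.9, 15.5 and 14.8 TPM in P213L, against 11.0, 10.6, 10.6 and 11.9 TPM in WT. The WT libraries lay close together, and every P213L library lay above them. Btg2 averaged 17.4 ± 3.95 TPM in P213L and 11.0 ± 0.628 TPM in WT (SD, n = 3 and 4), with a log2 fold change of 0.61 ± 0.16 (SE; limma p = 0.00451, the smallest of the 10, adjusted p = 0.827; exact permutation p = 0.0286). Without P213L replicate 1 it was 0.44 ± 0.13 (SE), still with an unadjusted p under 0.05 (adjusted p = 0.957 in limma).

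Dusp1 (chromosome 17, 26505590 to 26562128, minus strand) encodes a phosphatase that switches off MAP kinases and so limits the signal that induces it. It stood at 23.5, 20.3 and 19.4 TPM in P213L, against 17.2, 16.4, 17.4 and 20.1 TPM in WT. WT replicate 4 fell among the P213L libraries, and the log2 fold change was 0.24 ± 0.12 (SE; limma p = 0.0869, adjusted p = 0.827; exact permutation p = 0.0857). Without P213L replicate 1 it was 0.16.

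Atf3 (chromosome 1, 191170296 to 191218039, minus strand), a stress-induced bZIP factor that marks injured neurons, was near the level at which genes were tested. It stood at 2.88, 1.05 and 1.41 TPM in P213L, against 1.29, 1.02, 1.20 and 0.857 TPM in WT. P213L replicate 1 was above all other libraries, replicate 2 lay within the WT range and replicate 3 just above it. Its log2 fold change of 0.45 ± 0.28 (SE; limma p = 0.155, adjusted p = 0.827; exact permutation p = 0.143) was 0.12 ± 0.23 without P213L replicate 1 (SE) and 0.68 without P213L replicate 2.

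Ier2 (chromosome 8, 84661331 to 84662852, minus strand), an immediate early nuclear protein, stood at 29.4, 23.0 and 27.0 TPM in P213L, against 25.9, 24.2, 30.8 and 20.1 TPM in WT. Its ranges overlapped almost entirely, with a log2 fold change of 0.08 ± 0.16 (SE; limma p = 0.650, adjusted p = 0.886; exact permutation p = 0.714), which was -0.011 with median-of-ratios scaling. It was -0.0013 without P213L replicate 1, 0.17 without P213L replicate 2, 0.18 without WT replicate 3 and -0.025 without WT replicate 4.

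Library by library, P213L replicate 1 was the highest of the 7 for 6 of the 10 genes (Fos, Fosb, Junb, Btg2, Dusp1 and Atf3), against 14.7% of all tested genes, and P213L replicate 3 for Fosl2 and Jun, against 8.31%. WT replicate 3 was highest for Jund and Ier2, against 21.6%. The lowest library was a WT library for all 10 genes, replicate 3 for Fos, Fosb and Fosl2, replicate 2 for Jun, Jund, Btg2 and Dusp1, and replicate 4 for Junb, Ier2 and Atf3. Of all tested genes, these libraries were lowest for 55.1%, 9.3% and 6.58%, each counted apart. The share with any WT library lowest, which is the match for all 10 genes, was not counted and is above 55.1%. Relative to the mean of each gene, P213L replicate 1 stood 1.09 higher for Fos, 0.98 for Fosb, 0.91 for Atf3 and 0.70 for Btg2 on the log2 scale, while Jun and Junb stood 0.16 and 0.21 higher there. The median log2 fold change of the 10 genes was 0.35, with all tested genes at 0.07, and it was 0.25 without P213L replicate 1.

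**Figure D3:**
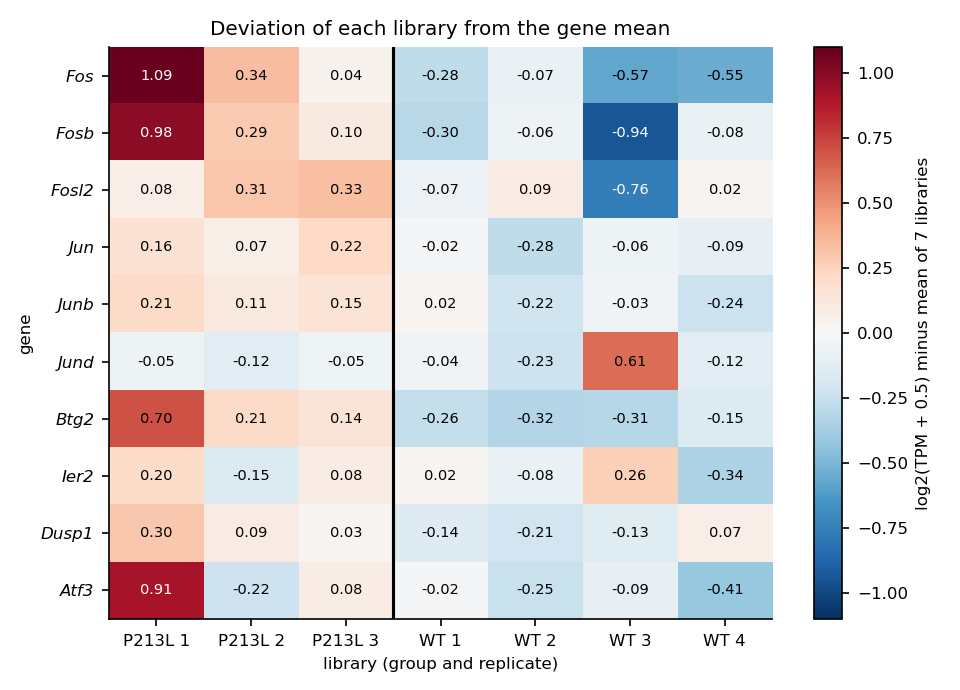
Difference of each library from the mean of the 7 libraries for each gene, in log2(TPM + 0.5) (colour and printed value), P213L libraries to the left of the line and WT libraries to the right. P213L replicate 1 is the strongest column for Fos, Fosb, Btg2 and Atf3, and WT replicate 3 is lowest for Fos, Fosb and Fosl2 and highest for Jund.

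Other features of these libraries are listed here, many of which overlapped between the groups, and their part in the result was not tested. WT replicate 3 correlated across tested genes with the other 6 libraries at 0.943 to 0.949, whereas each of those reached 0.990 to 0.992 with its nearest library. It had 28367 rows above 0, against 31387 to 32526 in the others. Without it the median log2 fold change of all tested genes was -0.002. Slc17a7, the vesicular glutamate transporter of cortical excitatory neurons, stood at 548.7, 543.4 and 631.5 TPM in P213L, against 707.4, 618.3, 247.8 and 613.5 TPM in WT, lowest in WT replicate 3. Bcl11b, Cux2, Tbr1 and Rbfox3, other neuron markers, were also lowest there, whereas Gad1 was lowest in P213L replicate 1 and Neurod6 in WT replicate 1. These markers are named after their values were seen. P213L replicate 1 had the lowest share of mitochondrially encoded transcripts, at 4.17% of TPM, against 5.68 and 6.89% in the other P213L libraries and 5.58 to 8.51% in WT. Malat1, a nuclear long noncoding RNA, stood at 488.2, 529.4 and 568.7 TPM in P213L, against 385.2, 290.6, 89.9 and 356.5 TPM in WT, without overlap and lowest in WT replicate 3. The 7 microglia markers summed to 159.8 to 164.7 TPM in P213L and 165.0 to 202.2 TPM in WT, the 6 endothelial markers to 306.6 to 323.9 and 290.0 to 397.8 TPM, and the 7 meningeal fibroblast markers to 138.9 to 203.3 and 81.8 to 144.8 TPM. All 7 microglia markers had lower values in P213L (3 at an unadjusted p under 0.05), and 6 of the 7 meningeal markers had higher ones (1 at that threshold), where 1.38% of all tested genes were lower and 2.36% higher at it and 63.4% had a log2 fold change above 0. The median log2 fold change of the 7 meningeal markers was 0.35, and 0.20 without WT replicate 3. No defining marker of these lists was at 0 in its mean. The 5 mural cell markers summed to 275.8 to 295.0 TPM in P213L and 269.1 to 303.0 TPM in WT, the 6 astrocyte markers to 604.4 to 619.8 and 501.3 to 669.5 TPM, and the 5 blood markers to 460.3 to 600.1 and 415.0 to 902.8 TPM. The 5 choroid plexus markers summed to 7.94 to 9.54 TPM in P213L and 4.83 to 1244 TPM in WT, the upper value being replicate 2. Hnrnph2 itself stood at 77.7 to 88.1 TPM in P213L and 78.9 to 90.9 TPM in WT, and since the variant changes the protein this level does not check the labels.

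Genes with the profile most like that of Fos were sought among 11441 genes averaging 5 TPM or more, by the root mean square difference of log2 values centred on their own means over the 7 libraries. Among all tested genes Fosb was the nearest to Fos, at 0.23 on the log2 scale, and Btg2 was also among the nearest, at 0.26, where the spread of Fos itself about its mean was 0.54 by the same measure. Among the genes averaging 5 TPM or more and outside the 10, the nearest 6 were H19 (an imprinted long noncoding RNA), Shisa2, Itih2, Zbtb12, Crip3 and Foxj1 (a factor of motile cilia). H19 stood at 26.02, 25.2 and 19.2 TPM in P213L, against 14.9, 16.2, 9.14 and 14.5 TPM in WT. Zbtb12, a zinc finger gene, stood at 22.6, 18.5 and 17.7 TPM in P213L, against 14.3, 12.5, 8.79 and 13.6 TPM in WT. These genes were picked for their likeness, so their values are a description. Jund was at 0.67, rank 14700 of the tested genes by nearness to Fos.

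Related genes were counted list by list, and the differences between lists were not tested. Of all tested genes, 63.4% had a log2 fold change above 0. At an unadjusted p under 0.05 in limma, 2.36% of them were higher and 1.38% lower in P213L. Of 15 other bZIP genes that can pair with Fos or Jun or bind like sites, 12 were tested, 9 with higher and 3 with lower values in P213L (median log2 fold change 0.08), and 1 was higher at an unadjusted p under 0.05. That gene was Mafk, a small Maf factor, at 14.2, 13.9 and 14.1 TPM in P213L and 12.5, 11.7, 10.4 and 12.1 TPM in WT (log2 fold change 0.26 ± 0.11, SE; limma p = 0.0449, adjusted p = 0.827; exact permutation p = 0.0286). Mafg had 0.23 ± 0.14, Atf2 -0.15 ± 0.15 and Crem -0.14 ± 0.15 (log2 fold change, SE). Without WT replicate 3, Mafg had 0.12 and Crem -0.06. Without P213L replicate 1, Atf2 had -0.06 and Crem -0.04, and without P213L replicate 2 they had -0.25 and -0.23. Atf2 had -0.24 without WT replicate 1 and -0.08 without WT replicate 2.

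Of the 22 tested kinases, serum response factors and turnover factors that act on AP-1, 13 had higher and 9 lower values, with a median log2 fold change of 0.02. Fbxw7, the substrate receptor of a ubiquitin ligase that marks Jun for degradation, was the 1 gene with an unadjusted p under 0.05. It stood at 68.5, 81.7 and 77.7 TPM in P213L, against 91.1, 96.3, 88.0 and 95.9 TPM in WT, without overlap. Its log2 fold change was -0.29 ± 0.10 (SE; limma p = 0.0219, adjusted p = 0.827; exact permutation p = 0.0286), where 2.75% of all tested genes lay wholly lower in P213L. Srf, whose protein binds the CArG box, had 0.40 ± 0.28, Elk1 0.34 ± 0.24 and Rps6ka1 0.34 ± 0.20 (log2 fold change, SE), and each had its lowest level in WT replicate 3. Without that library Srf had 0.13, Elk1 0.11 and Rps6ka1 0.17, while 6 of the 22 genes were higher and the median was -0.07.

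Of 32 tested genes among the other rapid response genes, 20 had higher and 12 lower values (median log2 fold change 0.07, as for all tested genes), with 1 higher and 1 lower at an unadjusted p under 0.05. Ccn2, a matricellular target of YAP and serum response factor, was lower, at 25.0, 24.1 and 24.5 TPM in P213L and 29.6, 29.5, 39.4 and 28.2 TPM in WT (log2 fold change -0.35 ± 0.14, SE; limma p = 0.0341, adjusted p = 0.827; exact permutation p = 0.0571). Zfp36l1, an mRNA decay factor, was higher, at 54.4, 58.1 and 54.3 TPM in P213L and 49.9, 47.8, 39.0 and 46.8 TPM in WT (log2 fold change 0.28 ± 0.11, SE). Klf4 had 0.45 ± 0.22 and Plk3 0.32 ± 0.16 (log2 fold change, SE), neither at an unadjusted p under 0.05, and without WT replicate 3 these were 0.27 and 0.21. P213L replicate 1 was the highest library for 9 of the 32 (against 14.7% of all tested genes), WT replicate 3 for 10 (against 21.6%).

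Genes that neurons switch on with activity gave 7 higher and 5 lower values of 12 tested, with 0 at an unadjusted p under 0.05 in limma (0 also adjusted) and a median log2 fold change of 0.04. Nr4a1, an orphan nuclear receptor induced with Fos, stood at 51.2, 39.9 and 43.5 TPM in P213L and 42.7, 36.6, 36.8 and 37.7 TPM in WT (log2 fold change 0.21 ± 0.12, SE). Arc, which acts at synapses, had 0.40 ± 0.25, Nr4a3 0.16 ± 0.16 and Nptx2 -0.18 ± 0.11 (log2 fold change, SE). Without WT replicate 3, Arc had 0.18 and Nr4a3 0.06. Nr4a1 had 0.12 and Nr4a3 0.30 without P213L replicate 1, and without P213L replicate 2 or 3 Nr4a3 had 0.09 or 0.08. P213L replicate 1, highest for Fos, was the highest library for 1 of these 12 genes, against 14.7% of all tested genes.

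All 6 heat stress genes had higher values in P213L, with a median log2 fold change of 0.21 and 1 at an unadjusted p under 0.05. The matching shares of all tested genes were 63.4% above 0 and 2.36% higher at that threshold. Hspa1a, the inducible Hsp70, stood at 3.89, 3.16 and 2.61 TPM in P213L and 2.71, 1.81, 1.79 and 2.35 TPM in WT (log2 fold change 0.48 ± 0.20, SE; limma p = 0.0397, adjusted p = 0.827; exact permutation p = 0.0857). Hspa1b, a near-identical copy that can share its reads, stood at 2.06, 2.06 and 1.999 TPM in P213L and 1.68, 1.53, 1.12 and 1.996 TPM in WT. Hspb1 had 0.35 ± 0.23 and the constitutive Hspa8 0.09 ± 0.08 (log2 fold change, SE). Hspb1 had 0.20 and Hspa8 0.06 without P213L replicate 1, and Hspb1 had 0.23 without WT replicate 2. P213L replicate 1 was the highest library for 4 of the 6, against 14.7% of all tested genes. With median-of-ratios scaling, 5 of the 6 heat stress genes and 6 of the 12 bZIP genes had higher values in P213L. So did 8 of the 22 upstream genes, 15 of the 32 other rapid response genes and 5 of the 12 activity genes. The median log2 fold change of all tested genes with that scaling was -0.008.

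**Figure D4:**
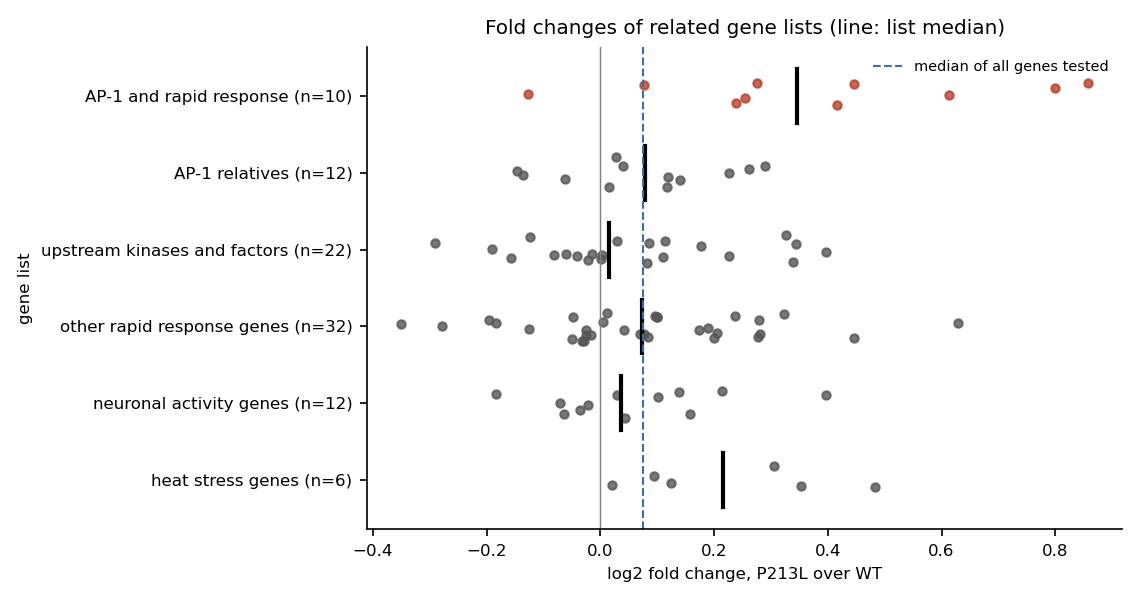
Log2 fold change, P213L over WT (x axis), of every tested gene of the 10 AP-1 and rapid response genes (red) and of 5 related lists (grey), with each list's median as a black line and the median of all tested genes (0.07) dashed. Of the 6 lists drawn, the 10 genes have a median of 0.35 and the heat stress genes 0.21, while the other 4 have medians of 0.02 to 0.08.

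The dependence of the 10 fold changes on single libraries and on scaling is drawn for 3 alternatives. Fos and Btg2 kept an unadjusted p under 0.05 in each of 18 alternatives, and Fosb in 14 of 17, missing it without P213L replicate 1, without WT replicate 1 and with sample weights. Jun and Junb kept it in 8 and 10 of 18. Jun and Junb overlap genes on the other strand (Junos at 0.363 to 0.763 TPM and Prdx2 at 287.2 to 487.0 TPM over the 7 libraries), and Dusp1 overlaps Ergic1 (39.2 to 69.0 TPM). The library kit keeps strand, but the strand setting of the counting is not given in the sources used here, so reads of such pairs may not be told apart.

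**Figure D5:**
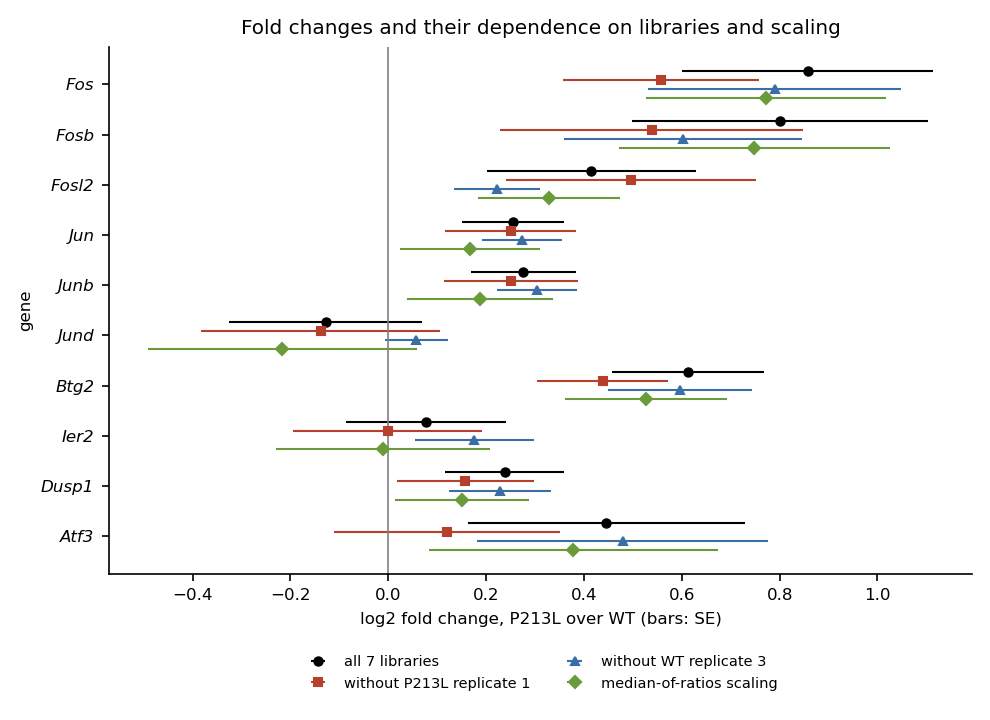
Log2 fold change, P213L over WT (x axis, bars are SE), of the 10 genes with all 7 libraries (black), without P213L replicate 1 (red), without WT replicate 3 (blue) and with median-of-ratios scaling (green). Of the 10 genes, only Fos and Btg2 keep an unadjusted limma p under 0.05 in all 4 settings, and none passes adjustment in any of them. Atf3 drops to 0.12 without P213L replicate 1, and Jund turns to 0.06 without WT replicate 3.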

How the data were processed

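Fresh cortex was lysed in TRIzol and sequenced from a stranded mRNA kit, per the labels' protocols. The submitters' processing notes name HISAT2, HTSeq and mm10; for versions, annotation and gene lengths, the sources used here give nothing. The deposited values are TPM per gene, per the file headers, and each column sums to 1000000. The 147 symbols on more than 1 row were kept as separate rows.

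TPM keeps no read total. Values multiplied by GENCODE vM21 exon-union lengths (85.9% of rows matched) mostly fell on steps of 1 or 0.5 counted units. Of values above 0 and up to 10 units, 64.1 to 72.2% per library were whole and 95.1 to 96.1% whole or on a 0.5 step, within 0.05. What the 0.5 steps stand for is not known, so the totals are rough estimates of 71.2 to 79.4 M units (M, 1000000) per library in P213L and 57.2 to 72.5 M in WT. For 8 of the 10 genes the values in every library were multiples of 0.5 units. Ier2 and Jund were not, so their unit counts are approximate.

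Genes averaging 1 TPM or more were tested as log2(TPM + 0.5), which understates the change of low genes, with limma 3.58.1 in R 4.3.3 (trend, two-sided, Benjamini-Hochberg over all tested genes, threshold 0.05), after tests on simulated data. No covariate was used. Single genes were also compared by exact permutation over 35 splits. The 10 genes and all lists were chosen with earlier results of these data known. Named were the 10 genes, the up to 4 genes of smallest p in each related list, and the 6 most like Fos. Gene positions are those of vM21 on mm10. Alternatives were other pseudocounts, filters, scalings and fits, the replicate number as a block, and each library left out. Figures were drawn with matplotlib 3.10.9.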

Additional observations from a re-analysis of the deposited data

Results flagged for a closer look

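Each of 25 measures was searched for a WT library lying apart from the other WT libraries, which chance gives in about 1 of 20 groups. WT replicate 3 lay apart in 2 of them, which share Jund. Jund held 60.6% of the summed TPM of the Jun genes there, against 48.6 to 50.0% in the other WT libraries. The ratio of Jun to Jund was 0.358 there, against 0.552 to 0.582.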

How the results depend on the processing

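No gene among the 10 passed an adjusted p of 0.05 in any alternative except sample weights, where 6 passed (Fos, Fosl2, Jun, Junb, Btg2 and Ier2) among 3981 genes in all, with 6969 at an unadjusted p under 0.05. Those weights rest on few libraries, with P213L replicate 3 at 6.90, WT replicate 4 at 5.24 and WT replicate 3 at 0.0431. The 657 genes at an unadjusted p under 0.05 became 1836 without a filter and 361 at a mean of at least 5 TPM, and 266 to 1574 with 1 library left out (266, 390 and 314 without P213L replicates 1, 2 and 3; 1574 and 1528 without WT replicates 1 and 3). Of these genes 63.2% were higher in P213L, and 51.9% with median-of-ratios scaling. The 5 of 10 genes at that threshold became 3 (Fos, Fosb and Btg2) with median-of-ratios scaling, quantile normalization and the replicate block, and 2 to 6 with 1 library left out, the 2 being Fos and Btg2 without P213L replicate 1, and 3 (Fos, Fosb and Btg2) without P213L replicate 2 or 3 or WT replicate 2 or 4. The log2 fold change of Ier2 turned to -0.011 with median-of-ratios scaling and -0.025 with the replicate block, and with 1 library left out it ran from -0.025 (WT replicate 4) to 0.176 (WT replicate 3), at -0.0013 without P213L replicate 1. That of Jund turned to 0.071 with sample weights and ran from -0.223 (WT replicate 2) to 0.057 (WT replicate 3) with 1 library left out. Same-numbered libraries did not deviate together throughout (correlations of 0.13, 0.17 and -0.10 for replicates 1 to 3). For P213L replicates 1 and 2 the same-numbered WT library gave the highest correlation, and for replicate 3 the lowest. So few correlations cannot exclude a pairing by number, and the main fit used none. In the block, WT replicate 4 has no partner and adds nothing to the fold change. The causes of these shifts were not tested. Atf3 rests on an estimated 32 to 121 counted units and Fosb on 53 to 383.5, the fewest of the 10.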
